A study of Mus musculus with 25 samples.

Results

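Chromosome 1 of the mouse carried 5355 of the 65053 consensus open-chromatin peaks (8.23%) measured by ATAC-seq in αTC1 and βTC6 cells. Its members were selected on their position alone, as all peaks that the deposited table places on the chromosome, ordered by start and profiled in 40 bins of 5 Mb on build mm9. The profile itself was chosen by the read counts of the pure lines, since it is drawn from their ratio. Following it across the mixtures was part of the same choice. ATAC-seq inserts sequencing adapters into accessible DNA, so the read count of a peak reflects how open that stretch is. αTC1 (alpha TC1 clone 6) and βTC6 (beta-TC-6) are mouse islet tumour lines that arose under a viral large T antigen driven by the glucagon and the insulin promoter, respectively. Both were bought from ATCC and kept in different DMEM media, so the line and its medium cannot be told apart. Each cell type is represented by a single tumour-derived line. Each line had 5 ATAC-seq libraries and 3 RNA-seq libraries, and 9 further ATAC-seq libraries, 1 each, came from mixtures holding 10% to 90% βTC6 cells. Whether the replicates of a line were grown as separate cultures is not stated in the labels, so p-values measure only the spread between these libraries, which may be technical.

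In open chromatin, promoters tend to be accessible in many cell types, while distal elements such as enhancers differ more from one cell type to the next. Gene-rich stretches of a chromosome hold many promoters and are rich in G and C, whereas gene-poor stretches hold mostly distal elements. The read count of a peak also scales with the number of copies of its segment in the cell, and in these libraries copy number and openness per copy cannot be told apart.

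The central 200 bases of 4 peaks are shown (build mm9, plus strand, read from the reference), namely the peaks with the largest ratio toward each line and the start sites of 2 developmental regulators whose RNA was called higher in αTC1. Capitals mark CAGCTG, the E-box core bound by many basic helix-loop-helix factors. It reads the same on both strands.
chr1:116723794-116723993, largest ratio toward βTC6: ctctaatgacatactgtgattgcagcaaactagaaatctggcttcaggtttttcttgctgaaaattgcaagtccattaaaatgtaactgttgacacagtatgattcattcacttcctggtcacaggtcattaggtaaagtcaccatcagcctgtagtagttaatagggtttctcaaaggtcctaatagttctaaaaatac
chr1:21000503-21000702, largest ratio toward αTC1: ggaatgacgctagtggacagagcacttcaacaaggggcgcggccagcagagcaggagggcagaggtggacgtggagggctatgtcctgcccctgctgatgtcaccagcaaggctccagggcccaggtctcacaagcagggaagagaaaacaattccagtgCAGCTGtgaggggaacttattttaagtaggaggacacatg
chr1:78193437-78193636, start site of Pax3: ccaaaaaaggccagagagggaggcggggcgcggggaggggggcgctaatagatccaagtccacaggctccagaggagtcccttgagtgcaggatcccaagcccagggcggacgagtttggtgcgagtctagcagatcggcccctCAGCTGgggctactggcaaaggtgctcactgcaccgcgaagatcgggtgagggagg
chr1:120950103-120950302, start site of Gli2: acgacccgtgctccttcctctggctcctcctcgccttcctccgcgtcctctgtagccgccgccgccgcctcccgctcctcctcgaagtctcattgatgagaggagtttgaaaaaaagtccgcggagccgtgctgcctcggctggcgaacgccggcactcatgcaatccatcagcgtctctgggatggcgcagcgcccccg
The βTC6 centre was 37% G and C and held none of the 5 motifs searched. The αTC1 centre was 57% G and C and held CAGCTG once. The Pax3 and Gli2 centres were 64% and 65.5% G and C, and of the 2 only that of Pax3 held CAGCTG.

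All libraries were deep relative to the number of peaks, with 4397851 to 10374903 reads in peaks per pure-line library, of which 712877 to 789164 (αTC1) and 325740 to 767755 (βTC6) fell on chromosome 1. RNA-seq libraries held 21954031 to 26033482 expected counts. Alpha cell markers summed to 12354 to 14703 FPKM in αTC1 and 194 to 283 FPKM in βTC6, and beta cell markers summed to 13.6 to 14.9 FPKM and 25372 to 37986 FPKM, matching the line names. Of the delta cell markers, Sst had 207 to 325 FPKM in βTC6 and 0 in αTC1, while Hhex was at or under 0.02 FPKM in βTC6 and 0.06 to 0.13 FPKM in αTC1. Of the ductal markers, Sox9 had 4.05 to 4.42 FPKM in αTC1 and 0 in βTC6, and Krt19 was at or under 0.08 FPKM in all libraries. Ppy, of PP cells, had 3.7 to 50.8 FPKM in βTC6 and 0.09 to 0.1 FPKM in αTC1. In αTC1 and βTC6 respectively, acinar markers summed to 3.58 to 3.73 and 0.14 to 0.82 FPKM and fibroblast markers to 1.33 to 2.26 and 0.19 to 0.39 FPKM. Endothelial and leukocyte markers stayed at or under 0.28 FPKM in all libraries. The part of these cells in the values that follow was not tested.

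Chromosome 1 drew a smaller part of the open-chromatin reads in βTC6 than in αTC1. It took 9.51% to 10.4% of the reads in peaks of the 5 αTC1 libraries (10.1% ± 0.39, SD, n = 5) and 7.07% to 7.41% in the 5 βTC6 libraries (7.30% ± 0.14, n = 5). The groups did not overlap. Summed TMM-normalized reads over its peaks were 105583 to 109028 in αTC1 and 65414 to 72086 in βTC6. These shares and the ratios that follow come from the contrast that defines the profile and are given as a description, and the calls from that contrast, made with limma, are counted without support being drawn from them.

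The peak ratio, the log2 fold change of βTC6 over αTC1 on the log2(TMM-normalized reads + 1) scale, had a median of -0.61 over the 5355 peaks (interquartile range -1.21 to 0.73). The median over peaks outside chromosome 1 was 0.02. Of the chromosome 1 peaks, 3463 (64.7%) had a ratio below 0. In 46.1% of the 5355 peaks every βTC6 library lay below every αTC1 library, against 30.2% of all peaks. In 23.9% of the 5355 every βTC6 library lay above, against 33.7%. Peaks past the fold limit (a log2 fold change beyond 2 in size, with limma FDR under 5%) numbered 405 (7.56%) more open in βTC6, against 12.9% of all peaks, and 454 (8.48%) more open in αTC1, against 5.38%. Under quantile normalization the split was 277 (5.17%, against 8.69% of all peaks) and 644 (12.03%, against 7.88%). The counts moved with the fitting as well, to 695 (12.98%, against 21.2%) and 753 (14.1%, against 8.82%) by edgeR on recovered reads and to 87 (1.62%, against 2.56%) and 137 (2.56%, against 1.26%) with a pseudocount of 5. The median was -0.59 within replicates 1 to 3 and -0.60 within replicates 4 and 5, which differ in the study's record of mitochondrial reads. The called peak nearest the fold limit had an absolute log2 fold change of 2.0016 and the nearest peak not called 1.9975.

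Among the 20 chromosomes other than Y, which held 2 peaks, chromosome 1 had the second lowest median ratio, both over all peaks and over promoter peaks. Chromosome 6 had the lowest (-0.79 over all peaks and -1.08 over promoters), chromosome 7 the third lowest (-0.57 and -0.65) and chromosome 14 the highest (1.54 and 0.81).

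**Figure D1:**
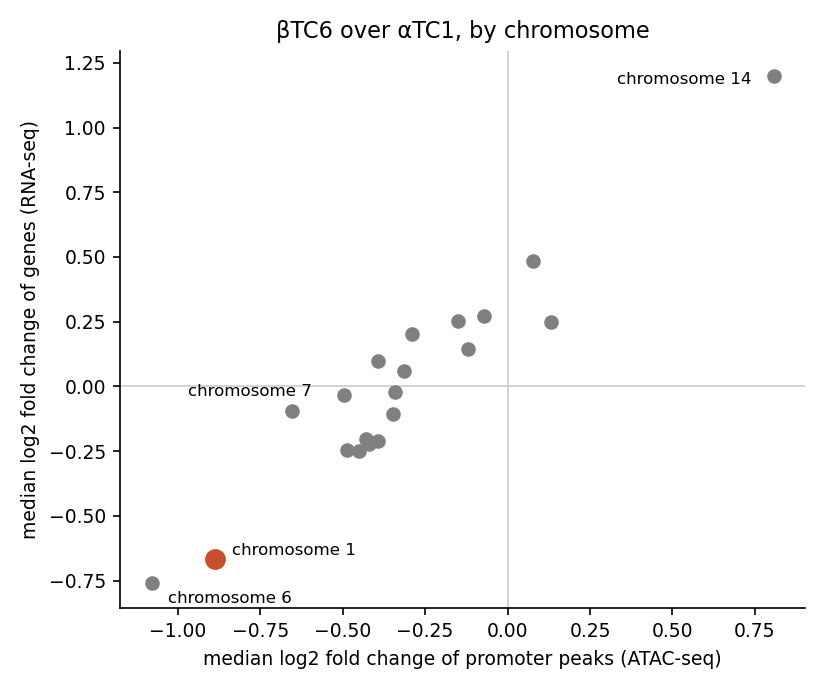
Median log2 ratio (βTC6 over αTC1) of promoter peaks (x axis) and median log2 fold change of expressed genes (y axis), with 1 point per chromosome. Chromosome 1 (promoters -0.89, RNA -0.67) sits near chromosome 6 in the lower left and far from chromosome 14 in the upper right.

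Along the chromosome the bin median lay below 0 in 32 of the 40 bins, below -0.5 in 24 of them, and above 0.5 in 5. With a pseudocount of 5, 12 bins lay beyond 0.5 in size, against these 29. A bin held 27 to 212 peaks. In 37 bins the 5 βTC6 libraries and the 5 αTC1 libraries did not overlap, and the 3 bins with overlap were 10 to 15 Mb, 150 to 155 Mb and 195 Mb to the end. The SD of the βTC6 libraries within a bin had a median of 0.077, and the SD of the medians across bins was 0.69. The spread across bins on the other chromosomes ranged from 0.31 (chromosome 7) to 0.73 (chromosome 9), so the spread on chromosome 1 lay inside their range.

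**Figure D2:**
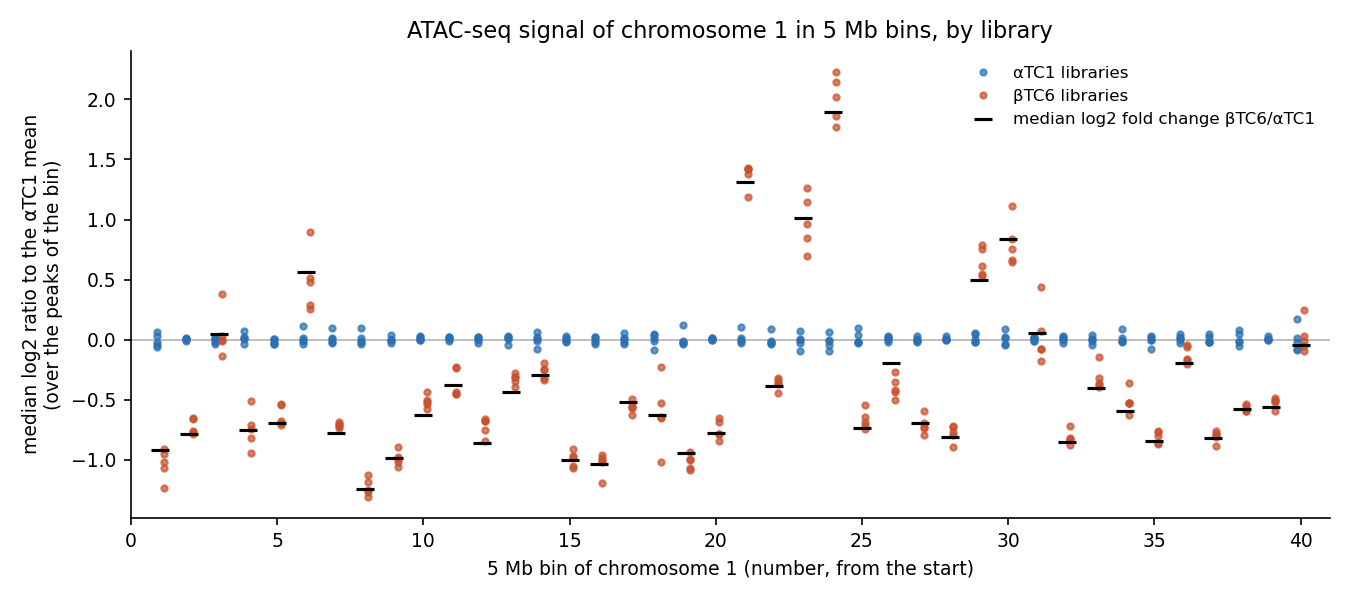
Median log2 ratio to the mean of the αTC1 libraries (y axis) in 40 consecutive bins of 5 Mb (x axis, bin number from the start of chromosome 1), with each of the 5 αTC1 and 5 βTC6 libraries drawn. All βTC6 libraries lie below all αTC1 libraries in 31 bins, lowest in bin 8 (median -1.24), and above them in bins 6, 21, 23, 24, 29 and 30, highest in bin 24 (median 1.89).

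The first 25 Mb mixed both signs. Medians were -0.92 at 0 to 5 Mb, -0.79 at 5 to 10 Mb, 0.04 at 10 to 15 Mb, -0.75 at 15 to 20 Mb and -0.70 at 20 to 25 Mb, followed by 0.57 at 25 to 30 Mb. The longest stretch of 1 sign then ran from 30 to 100 Mb. Its 14 bins all had medians below 0, from -1.24 to -0.29, and its 2028 peaks had a median of -0.78. The promoter peaks of this stretch (457) had a median of -0.98 and its distal peaks -0.65.

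The lowest bin, 35 to 40 Mb, lay in this stretch, although under quantile normalization the lowest was 0 to 5 Mb and over peaks with a mean of at least 10 reads it was 90 to 95 Mb. Its 137 peaks had a median of -1.24, and 119 of them were below 0. The βTC6 libraries gave -1.19, -1.27, -1.12, -1.25 and -1.31 and the αTC1 libraries lay between -0.04 and 0.10. Its 40 promoter peaks and its 97 distal peaks both had a median of -1.24. Of its peaks, 23 were called toward αTC1 (16.8%, against 5.38% of all peaks) and 2 toward βTC6 (1.46%, against 12.9%).

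The next lowest bins lay side by side. The 166 peaks at 75 to 80 Mb had a median of -1.04, with βTC6 libraries at -0.98, -1.02, -0.96, -1.01 and -1.19, and the 146 peaks at 70 to 75 Mb had a median of -1.002, with βTC6 libraries at -0.97, -1.07, -0.91, -1.05 and -0.98. All 10 values lay below the αTC1 libraries. The bins from 90 to 95 Mb (-0.94) and 40 to 45 Mb (-0.99) were close to them.

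Beyond 100 Mb the profile broke into short segments. The highest bins were at 115 to 120 Mb (median 1.89), 100 to 105 Mb (1.32) and 110 to 115 Mb (1.01), and between them 105 to 110 Mb had a median of -0.38. The first value became 0.98 with a pseudocount of 5, 2.94 by summed reads and 3.24 over peaks with at least 10 mean reads. At 115 to 120 Mb the 39 peaks had median reads of 1.64 in αTC1 and 8.67 in βTC6, and the βTC6 libraries gave 2.02, 2.14, 1.86, 1.77 and 2.23. This bin had 1 promoter peak, 1 annotated coding gene and a median of 40.5% G and C, and 17 of its peaks (43.6%) were called toward βTC6, against 12.9% of all peaks, and 0 toward αTC1, against 5.38%. At 100 to 105 Mb the 27 peaks gave 1.42, 1.19, 1.43, 1.38 and 1.42 in the βTC6 libraries, of which 10 (37.0%) were called toward βTC6 and 2 (7.41%) toward αTC1. At 110 to 115 Mb the 62 peaks gave 0.69, 1.15, 0.85, 0.97 and 1.26. These 3 bins held fewer peaks than most, and over bins of at least 100 peaks the highest median was 0.49, at 140 to 145 Mb.

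From 120 to 140 Mb all 4 medians were below 0 (-0.73, -0.20, -0.70 and -0.81). They turned positive at 140 to 145 Mb (0.49), 145 to 150 Mb (0.84) and 150 to 155 Mb (0.06). The 4 bins from 155 to 175 Mb were again below 0, with a median of -0.69 over 723 peaks, and so were the 3 bins from 180 to 195 Mb, with -0.67 over 528 peaks. The last bin, from 195 Mb, had a median of -0.04. No 3 neighbouring bins all had medians above 0.25, so there was no positive counterpart to these stretches.

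Positive bins were poor in promoters. Across the 40 bins the median ratio fell with the share of promoter peaks (Spearman -0.73), with the median G and C content of the peaks (-0.68) and with the number of annotated coding genes (-0.63). Bins of 1 chromosome share libraries, scaling and base composition with their neighbours, so these are descriptions. Outside chromosome 1 the same values over 490 bins were -0.55 for promoter share and -0.60 for G and C. The 4 bins with under 10% promoter peaks had a median of 1.16, close to the 0.98 of 45 such bins elsewhere, whereas the 23 bins with 10% to 20% promoter peaks had -0.43 against 0.38 elsewhere, the 10 bins with 20% to 30% had -0.83 against -0.09, and the 3 bins with 30% or more had -0.86 against -0.21.

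Promoter peaks were mostly less open in βTC6. The 1094 peaks within 2 kb of a start site (20.4% of the chromosome's peaks) had a median ratio of -0.89 (interquartile range -1.16 to -0.18), and 850 of them (77.7%) lay below 0. Of the 1094 promoters 60.8% fell between -1.5 and -0.5, against 31.3% of 16473 promoters outside the chromosome, whose median was -0.27. Every βTC6 library lay below every αTC1 library at 64.9% of promoters, against 38.7% of all promoters, and above at 15.4%, against 20.7%. The promoter median was below 0 in 34 of 34 bins with at least 10 promoters, from -1.24 to -0.0063, with an SD of 0.27 across those bins. Bins with fewer promoters went both ways. At 0 to 5, 25 to 30 and 45 to 50 Mb medians were -1.15 (6 promoters), -0.51 (5) and -0.39 (6). At 100 to 105, 110 to 115 and 115 to 120 Mb they were 2.31 (1 promoter), 1.83 (5) and 2.70 (1).

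By library, the median promoter ratio to the αTC1 mean was -0.86, -0.89, -0.86, -0.86 and -0.88 in the βTC6 libraries (mean -0.87 ± 0.014, SD, n = 5). In the αTC1 libraries it was 0.02, 0.03, 0.02, 0.02 and -0.07 (mean 0.0024 ± 0.042, n = 5). The αTC1 values are centred on their own mean by construction, so these values are a description. The αTC1 library at -0.07, replicate 5, stood at -0.08 over promoters outside chromosome 1 as well.

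Distal peaks were more spread out. The 4261 distal peaks had a median of -0.48 with an interquartile range from -1.24 to 0.90, and 61.3% lay below 0. The distal median outside the chromosome was 0.28. Distal medians per bin ran from -1.24 to 1.85, and 8 bins were above 0. By position, 558 exonic peaks had a median of -0.89, 2190 intronic peaks -0.57 and 2607 intergenic peaks -0.54.

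**Figure D3:**
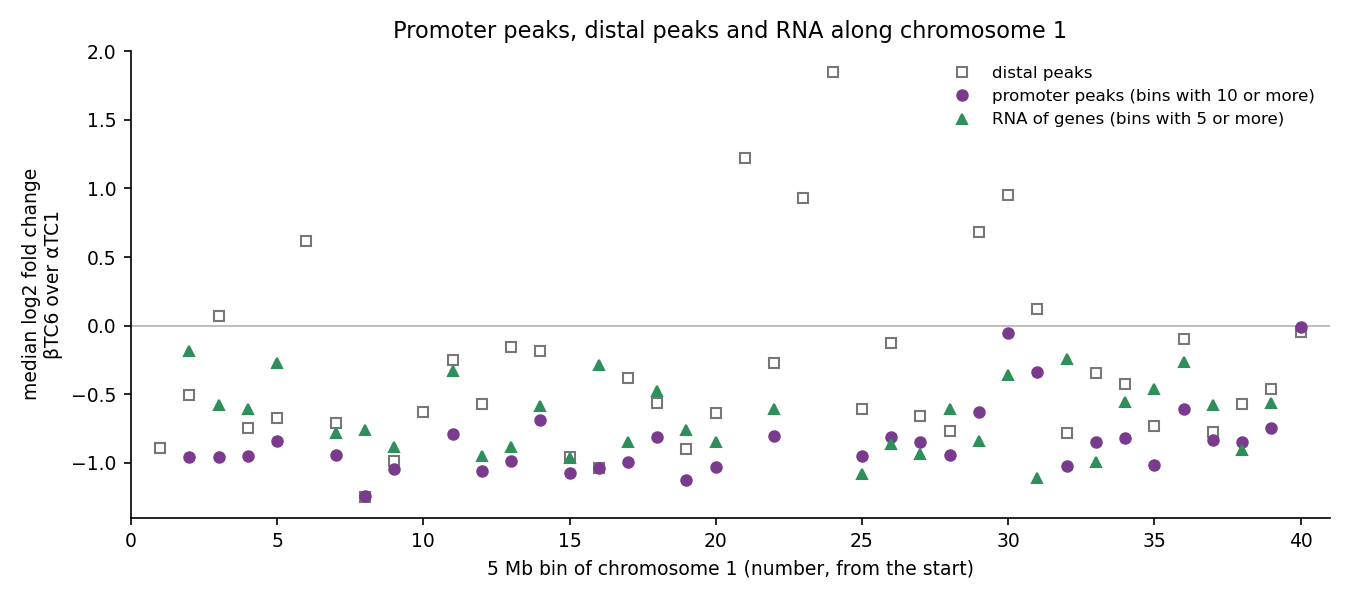
Bin medians of promoter peaks, distal peaks and RNA-seq log2 fold changes (y axis, log2 of βTC6 over αTC1) by bin number of 5 Mb along chromosome 1 (x axis). Promoter and RNA medians stay below 0 wherever a bin holds enough members, while distal medians range from -1.24 to 1.85.

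The ratio also moved with the read level of a peak. Promoter medians were -0.16 under 5 normalized reads, -0.28 from 5 to 10, -0.50 from 10 to 20, -1.01 from 20 to 50 and -1.03 at 50 or more, and distal medians in the same classes were -0.37, -0.38, -0.34, -1.01 and -1.33. Outside the chromosome the promoter medians were 0.36, 0.12, -0.18, -0.41 and -0.46, and the distal medians 0.60, 0.33, 0.12, -0.39 and -0.69. The chromosome 1 value was the lower of the 2 in each of the 10 classes. The added pseudocount pulls the ratios of low peaks toward 0, and its part in these differences was not tested.

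RNA-seq, which played no part in choosing the peaks, gave the same direction. Of 1322 entries on the chromosome 696 were expressed and tested, and their median log2 fold change was -0.67, against 0.01 over all 12195 genes tested. Of the 696 genes, 518 (74.4%) were below 0, against 49.6% of all. By edgeR's quasi-likelihood test with Benjamini-Hochberg adjustment, 460 genes (66.1%) were higher in αTC1 at FDR under 5%, against 36% of all genes, and 142 (20.4%) were higher in βTC6, against 38.7%. The other 94 did not pass. Scaled by spike-ins instead, 215 (30.9%, against 11.8% of all genes) and 87 (12.5%, against 17.5%) passed, with a median of -0.71. With the fold limit added, 36 (5.17%) were called higher in αTC1, against 4.08%, and 72 (10.3%) in βTC6, against 10.2%. Most of the genes higher in αTC1 therefore changed by less than the fold limit. Without the FPKM filter 70 (6.05%, against 5.21% of all genes) were called higher in αTC1 and 161 (13.9%, against 12.8%) in βTC6. In bulk RNA, fewer cells of a type and less RNA per cell cannot be told apart.

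By library, the median log2 ratio of the 696 genes was -0.65, -0.71 and -0.67 in βTC6 (mean -0.68 ± 0.028, SD, n = 3). Chromosome 1 genes took 8.13% ± 0.10 of all counts in αTC1 and 5.36% ± 0.14 in βTC6 (SD, n = 3 each). The 3 values of 1 line did not overlap those of the other, with p = 0.1 by a 2-sided exact permutation test, the smallest that 3 against 3 allows. The RNA median was below 0 in 33 of 33 bins with at least 5 genes, from -1.11 to -0.19. Of the 8 bins with a distal median above 0, 4 had enough genes for an RNA median, which was -0.58 over 9 genes at 10 to 15 Mb, -0.84 over 5 genes at 140 to 145 Mb, -0.36 over 6 genes at 145 to 150 Mb and -1.11 over 14 genes at 150 to 155 Mb. The bins at 25 to 30, 100 to 105, 110 to 115 and 115 to 120 Mb, which include the 3 with the highest medians of all peaks, held 0 to 2 tested genes and gave no RNA median, and at 110 to 115 Mb 1 of the 2 genes was called toward βTC6. In the stretch from 30 to 100 Mb the median over 298 genes was -0.75.

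A start-site peak was present for 591 of the 696 genes. In 426 of these (72.1%) both RNA and peak were below 0, in 55 both were above, in 96 RNA was above and the peak below, and in 14 the reverse. Across these genes, which are not independent replicates, Pearson's r was 0.70 and Spearman's rho 0.41. The 105 genes without such a peak had an RNA median of -0.70.

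Genes that most cell types express at high levels were mostly lower in βTC6, as the chromosome was. Of the 25 broadly expressed genes listed (ribosomal proteins, mitochondrial enzymes, splicing and proteasome subunits), all 25 were tested, 20 were higher in αTC1 and 1 in βTC6 at FDR under 5%, and 4 did not pass. These were 80% and 4% of the list, against 66.1% and 20.4% of the chromosome's genes. The list median was -0.75, against 0.01 over all genes and -0.67 over the chromosome. Hspd1, the mitochondrial chaperonin, stood at 629, 630 and 465 FPKM in αTC1 and 128, 129 and 147 FPKM in βTC6, a log2 fold change of -2.03 (SE 0.14, edgeR adjusted p = 1.61e-06). It was the 1 called member, and it sits at the fold limit, with -1.95 when αTC1 replicate 1 or 2 was left out and -1.99 without βTC6 replicate 1. Its start-site peak held 128 ± 13.3 normalized reads in αTC1 and 56.3 ± 6.75 in βTC6 (SD, n = 5 each).

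The 4 members of this list with the highest mean FPKM were Hspd1 and 3 genes of translation. Rpl37a, a large-subunit ribosomal protein, had 974, 975 and 1149 FPKM in αTC1 and 762, 803 and 858 FPKM in βTC6 (log2 fold change -0.30, SE 0.098, edgeR adjusted p = 0.0204). Rpl7, another, had 523, 559 and 663 FPKM and 503, 509 and 518 FPKM (-0.13, SE 0.10, adjusted p = 0.267). Eef1b2, an elongation factor subunit, had 412, 406 and 459 FPKM and 437, 444 and 419 FPKM (0.11, SE 0.084, adjusted p = 0.242), while its start-site peak had a log2 ratio of -1.35 (SE 0.14). The start-site peak of Rpl37a had -1.04 (SE 0.14). Ribosomal protein and chaperonin genes have processed copies elsewhere in the genome, so their counts are uncertain.

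Of the 12 secretory granule and exocytosis genes on the chromosome 9 were tested, of which 2 were higher in βTC6 and 6 in αTC1 at FDR under 5%, 1 did not pass and 0 passed the fold limit. The shares, 22.2% and 66.7%, lay near the 20.4% and 66.1% of all chromosome 1 genes, and the list median was -1.10. The 2 that rose in βTC6 encode granule cargo. Scg2, the granin secretogranin II, had 1054, 1043 and 907 FPKM in αTC1 and 2115, 2416 and 2215 FPKM in βTC6 (1.22, SE 0.12, edgeR adjusted p = 1.64e-05). Resp18, a granule protein of endocrine cells, had 286, 290 and 353 FPKM in αTC1 and 1121, 1038 and 954 FPKM in βTC6 (1.80, SE 0.11, adjusted p = 8.72e-07). Their start-site peaks had ratios of the other sign, -1.28 and -0.74. Kif1a, a motor that carries dense-core vesicles, fell by 1.17 on the log2 scale (edgeR adjusted p = 1.28e-05), and the synaptotagmins Syt2 (log2 fold change -1.46) and Syt14 (-1.62) fell as well (adjusted p = 3.43e-05 and 2.13e-05). Ptprn, a granule membrane protein, had 420, 424 and 419 FPKM in αTC1 and 380, 391 and 247 FPKM in βTC6 (-0.25, adjusted p = 0.193).

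Of 28 developmental transcription factors on the chromosome 14 were tested, 8 were higher in αTC1 (57.1%), 4 in βTC6 (28.6%) and 2 did not pass (median -0.73). These shares lay near those of the chromosome (66.1% and 20.4%). With the fold limit 3 were called, all toward αTC1 (21.4%, against 5.17% of the chromosome's genes). Gli2, a transcription factor of hedgehog signalling, had 5.94, 6.57 and 7.57 FPKM in αTC1 and 0.1, 0.15 and 0.07 FPKM in βTC6 (-6.16, SE 0.20, edgeR adjusted p = 1.78e-08). Its start-site peak at chr1:120950003-120950401, whose centre is printed above, held 15.4 ± 2.94 normalized reads in αTC1 and 2.75 ± 0.54 in βTC6 (-2.12), and within replicates 4 and 5 alone the ratio was -1.77, short of the fold limit. Pax3, a paired-domain factor of neural crest and muscle precursors, had 5.52, 6.08 and 3.3 FPKM in αTC1 and 0.01, 0 and 0.02 FPKM in βTC6. With 3 counts in all of βTC6, its ratio was 446 toward αTC1 (95% counting interval 152 to 2163). Its start-site peak at chr1:78193035-78194038 held 26.6 ± 2.29 normalized reads in αTC1 and 7.11 ± 1.33 in βTC6, a ratio short of the fold limit.

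The 4 members higher in βTC6 changed less than the called ones. Eya1, a transcriptional coactivator, rose by 0.85 on the log2 scale in βTC6, Hes6, a Hes family member active in neural and endocrine differentiation, by 1.10, Elf3, an epithelial ETS factor, by 0.40 and Esrrg, an orphan nuclear receptor, by 0.31. Prox1, a homeobox factor of pancreas development, was lower by 0.70 (edgeR adjusted p = 8.2e-05).

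**Figure D4:**
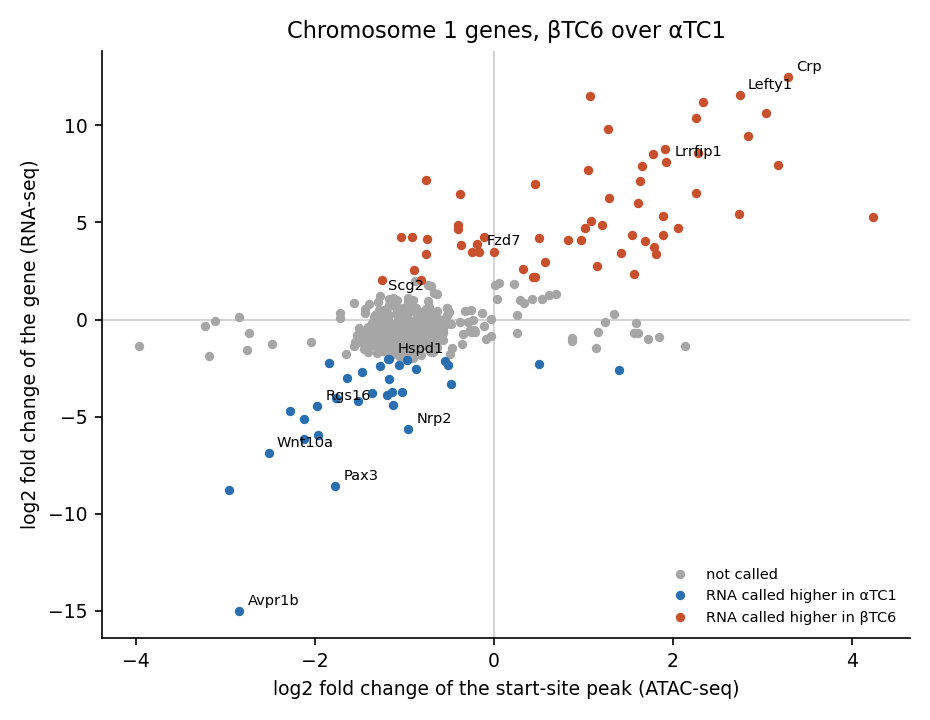
RNA-seq log2 fold change (y axis) against the log2 fold change of the start-site peak (x axis), both βTC6 over αTC1, for the 591 chromosome 1 genes that have both, with RNA calls coloured. Most genes form a cloud left of 0 on the x axis and a little below 0 on the y axis, Crp and Lefty1 lie at the upper right, and Fzd7 and Scg2 lie above 0 in RNA with peaks below 0.

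Growth factor and receptor genes held both directions. Of 19 on the chromosome 10 were tested, 7 higher in αTC1 (70%) and 3 in βTC6 (30%), close to the chromosome's shares, with 3 and 1 called (median -0.99). The calls were 30% and 10% of the list, against 5.17% and 10.3% of the chromosome's genes. Wnt10a, a secreted Wnt ligand, had 36.7, 38.6 and 47.5 FPKM in αTC1 and 0.42, 0.44 and 0.15 FPKM in βTC6 (-6.86, SE 0.25, edgeR adjusted p = 4.07e-08), and its start-site peak held 26.9 ± 3.21 normalized reads in αTC1 and 3.92 ± 1.10 in βTC6. Nrp2, a co-receptor of semaphorins and VEGF, had 23.2, 23.4 and 37.0 FPKM and 0.62, 0.44 and 0.52 FPKM (-5.63, SE 0.24, adjusted p = 9.55e-08), while its start-site peak had a ratio of -0.96. Igfbp5, an IGF binding protein, had 1.42, 1.4 and 1.57 FPKM and 0.28, 0.31 and 0.28 FPKM (-2.27, SE 0.17, adjusted p = 2.59e-06), with a start-site ratio of 0.50. Fzd7, a Wnt receptor, was the called member toward βTC6, with 0.44, 0.42 and 0.39 FPKM in αTC1 and 4.38, 5.28 and 4.23 FPKM in βTC6 (3.504, SE 0.16, adjusted p = 1.65e-07). Its start-site peak barely differed, at 53.9 ± 7.17 against 47.5 ± 3.43 normalized reads.

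RGS genes, which encode GTPase activators that shut off G protein signals, form clusters on this chromosome. Of 12 listed 6 were tested, 5 were higher in αTC1 (3 of them called), 1 did not pass and 0 were higher in βTC6 (median -1.81). The shares higher in αTC1 and called toward it were 83.3% and 50%, against 66.1% and 5.17% of the chromosome's genes. Rgs4 had 43.1, 42.2 and 87.0 FPKM in αTC1 and 6.59, 4.5 and 9.74 FPKM in βTC6 (-3.004, SE 0.34, edgeR adjusted p = 4.21e-05). Rgs5 had 3.55, 3.48 and 4.27 FPKM and 0.07, 0.06 and 0.06 FPKM (-5.95, SE 0.23, adjusted p = 5.3e-08), and Rgs16 had 10.5, 11.1 and 16.5 FPKM and 0.76, 0.36 and 0.54 FPKM (-4.47, SE 0.28, adjusted p = 8.78e-07). Their start-site peaks had ratios of -1.64, -1.96 and -1.98, each short of the fold limit. Those of Rgs5 and Rgs16 lay close enough to it to pass when single libraries were left out. For Rgs5 these were αTC1 replicate 5 (-2.05) or βTC6 replicate 2 (-2.05), 3 (-2.07) or 5 (-2.06). For Rgs16 they were αTC1 replicate 1 or 2 or any βTC6 library but replicate 2 (-2.003 to -2.04). Over all libraries both passed by edgeR on recovered reads (-2.12 for Rgs5, -2.17 for Rgs16) and under quantile normalization (-2.18, -2.22). With a pseudocount of 0.5 they passed as well (-2.09, -2.10).

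Genes with the largest changes in RNA were close to silent in 1 line. Toward βTC6, Crp, the acute-phase C-reactive protein, had 71.4, 69.2 and 47.7 FPKM against 0.03, 0 and 0 FPKM, and with 1 count in αTC1 the ratio was 7467 (95% counting interval 1340 to 294985). Ecel1, a membrane metallopeptidase, had 17.7, 13.8 and 14.3 FPKM and no count in αTC1, which makes it at least 344-fold higher against a floor of 3 counts per library. Lefty1, a Nodal inhibitor, had 12.7, 12.8 and 10.9 FPKM and no count in αTC1, at least 118-fold higher. Itpkb, an inositol trisphosphate kinase, had 14.8, 18.9 and 14.6 FPKM against 0.02, 0.01 and 0.01 FPKM (10.76, SE 0.25, edgeR adjusted p = 3.89e-09). Lrrfip1, a nucleic-acid binding protein, had 9.37, 9.26 and 10.7 FPKM against 0.05, 0.02 and 0.03 FPKM (8.12, SE 0.24, adjusted p = 1.36e-08). Toward αTC1, Avpr1b, a vasopressin receptor, had 39.3, 38.5 and 48.0 FPKM and no count in βTC6, at least 1448-fold higher. The start-site peak of Lrrfip1 (1.92) lay short of the fold limit, and passed it without αTC1 replicate 2 or 4 (2.03 each), with a pseudocount of 0.5 (2.11), in replicates 1 to 3 alone (2.15) and by edgeR on recovered reads (2.23). The start-site peaks of Crp (3.29), Lefty1 (2.75), Lrrfip1 and Avpr1b (-2.85) had ratios of the same sign as their RNA.

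The strongest single peaks were mostly distal. The peak at chr1:116723414-116724373, intergenic and 857440 bases from the nearest start site (Cntnap5a), had 1.12, 1.69, 1.503, 2.59 and 3.03 normalized reads in αTC1 and 98.1, 110, 94.5, 80.3 and 111 in βTC6 (5.09, SE 0.16). It lay in the bin with the highest median. Next came an intergenic peak at chr1:143850855-143851779 (4.29), the start site of A830018L16Rik at chr1:11403752-11404813 (4.24), an intron of the same gene at chr1:11571317-11572087 (4.22) and an intergenic peak at chr1:114699491-114700242 (4.16). The start site of A830018L16Rik had 3.83 ± 0.98 normalized reads in αTC1 and 90.9 ± 24.5 in βTC6, where replicate 5 was the highest.

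Toward αTC1, the peak at chr1:21000225-21000980 in an intron of Tram2, a translocon protein, had 88.1, 97.1, 102, 88.3 and 125 normalized reads in αTC1 and 1.28, 2.26, 2.84, 2.28 and 1.60 in βTC6 (-5.06, SE 0.15). It was followed by a peak in an exon of Ankrd39 (chr1:36595652-36596368, -4.99), one 54474 bases from the start of Hdac4, a histone deacetylase (chr1:94098904-94099984, -4.86), one 31163 bases from Vwa3b (chr1:37178786-37180266, -4.80) and one in an intron of Gli2 (chr1:120872999-120873847, -4.62). The last held 91.3 ± 14.8 normalized reads in αTC1 and 2.93 ± 1.65 in βTC6, alongside the loss of Gli2 RNA. Called peaks of both directions were seldom promoters (9.63% toward βTC6 and 9.69% toward αTC1, against 22.5% of peaks not called), and their median G and C content was 42.5% and 48% respectively.

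Motif content differed between the called peaks. In the central 200 bases, on either strand, CAGCTG was present in 29.5% of the peaks called toward αTC1, 14.1% of those called toward βTC6, 16.0% of chromosome 1 peaks not called and 17.2% of all peaks of the genome. The AP-1 site TGACTCA was present in 15.0%, 8.64%, 7.47% and 7.63% in the same order. TAATTA, a homeodomain core, was present in 4.19%, 11.9%, 7.47% and 6.93%, and TGTTTAC, a forkhead core, in 8.15%, 10.1%, 6.49% and 6.31%. The core of the CTCF motif was present in 0.22%, 0.99%, 5.14% and 4.13%. These shares describe letters in the window, with no test. None of the 5 motifs contains another.

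The mixtures asked whether graded cell composition could be followed, and they are separate libraries from the pure lines. Mixing the lines grades the reads of peaks that differ between them, so a trend here adds no separate support for the line difference. The median promoter ratio of chromosome 1 to the αTC1 mean was -0.16, -0.17, -0.33, -0.33, -0.43, -0.48, -0.53, -0.62 and -0.75 from 10% to 90% βTC6 cells. Promoters outside the chromosome stood at -0.16 in the 10% and at -0.32 in the 90% mixture. Weighting the pure lines by composition gave expected chromosome 1 promoter values of -0.06 at 10%, -0.36 at 50% and -0.75 at 90%, beside observed values of -0.16, -0.43 and -0.75. The median departure of single promoters from the expected value was widest at 30%, at -0.16 on the log2 scale, and it was -0.14 at 10% and -0.0066 at 90%. Over promoters of the whole genome it was -0.24, -0.17 and -0.07 at the same mixtures, so chromosome 1 did not depart further than the genome there. Each mixture is 1 library, so these departures have no replicate error. The distal ratio went from 0.01 at 10% to -0.35 at 90%.

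**Figure D5:**
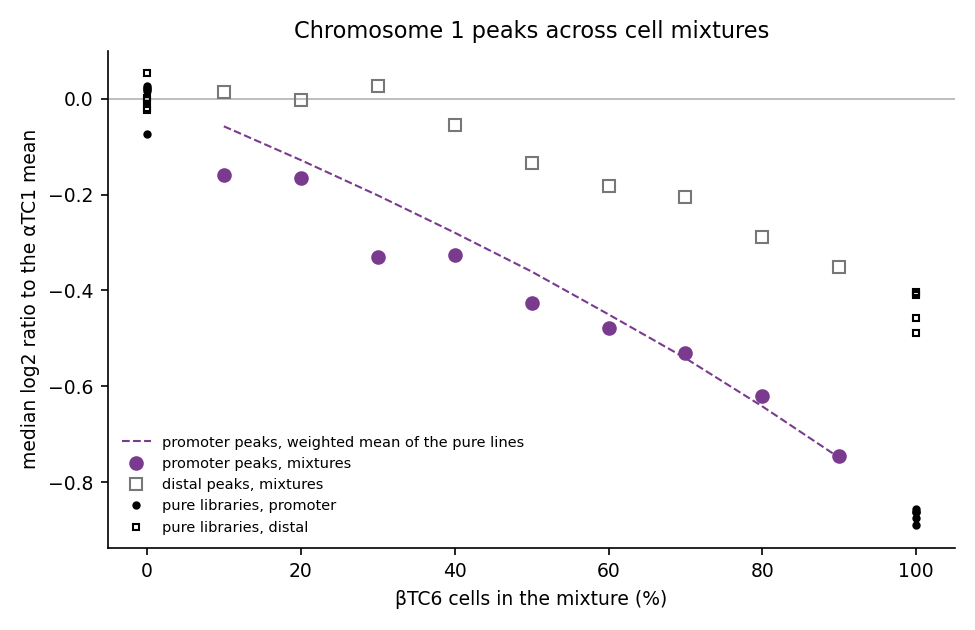
Median log2 ratio to the αTC1 mean (y axis) against the percentage of βTC6 cells (x axis) in the pure libraries (small symbols) and the 9 mixtures (large symbols), for promoter (circles) and distal (squares) peaks of chromosome 1, with the weighted mean of the pure lines for promoters as a dashed line. Promoters fall from -0.16 at 10% to -0.75 at 90%, below the dashed line up to 60% and close to it from 70%, and distal peaks fall from 0.01 to -0.35.

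Over the 9 mixtures this ratio, a summary chosen after seeing the data, correlated with the βTC6 percentage over all peaks (Pearson r = -0.98, 2-sided exact permutation p = 1.1e-05, adjusted over 20 chromosomes 3.15e-05, Spearman rho -0.98, permutation p = 5e-05). Leaving out the 10% and 90% mixtures gave r = -0.99. For promoters r was -0.99 and for distal peaks -0.97. The median level planned first, which does not divide each peak by its αTC1 value, gave r = 0.13 over the chromosome (exact permutation p = 0.741) and rho = 0.15.

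By bin, 35 of the 40 ratios followed composition at FDR under 5%, 28 falling and 7 rising, a share of 87.5% against 82.6% of 530 bins of the genome in either direction. Falling bins made up 39.4% and rising bins 43.2% of the genome. A bin that differs between the lines is likewise set to follow composition, so these counts are a description. With the median level, 24 bins (60%) passed, 12 falling and 12 rising, against 74.5% of genome bins in either direction, 17.9% falling and 56.6% rising. By summed reads 39 passed, 33 falling and 6 rising, against 82.5% of genome bins. Over peaks of at least 10 reads 31 passed, 23 falling and 8 rising, against 70.6%. The ratio and the median level passed with opposite signs at 50 to 55 Mb (ratio r = -0.93, level r = 0.85) and 160 to 165 Mb (-0.97 and 0.79). Bins whose ratio did not pass were 10 to 15, 65 to 70, 125 to 130, 175 to 180 and 195 Mb to the end, all with pure-line medians between -0.29 and 0.04.

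The extreme bins followed composition under the ratio and the median level, with 1 exception. The ratio at 35 to 40 Mb was -0.07, -0.53 and -1.15 at 10%, 50% and 90% βTC6 (r = -0.97, exact permutation p adjusted over 530 bins 4.49e-05). At 75 to 80 Mb r was -0.98 and at 70 to 75 Mb -0.98, although at 70 to 75 Mb the level gave r = -0.61 and did not pass (adjusted p = 0.109). The ratio at 115 to 120 Mb was 0.38, 1.38 and 1.90 at the same mixtures (r = 0.98), at 110 to 115 Mb r was 0.95, and at 100 to 105 Mb 0.92. Single peaks spanned the range more fully: the peak at chr1:116723414-116724373 held 11.0, 49.7 and 102 normalized reads at 10%, 50% and 90% βTC6, and the peak at chr1:21000225-21000980 held 104, 65.0 and 19.0.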

How the data were processed

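Chromosome 1 peaks were taken from the ATAC-seq libraries of αTC1 (n = 5), βTC6 (n = 5) and 9 mixtures, and its genes from the RNA-seq libraries (n = 3 per line). Per the submitters' processing notes and the study's methods, ATAC-seq reads passed through Trimmomatic 0.32 (trimming), BWA 0.7.9a (alignment to mm9), Picard 1.95 (duplicate removal), MACS2 2.1.0 (peak calls) and DiffBind 2.2.5 (read counts in consensus peaks). The deposited signal values are read counts per peak after TMM normalization by the authors, from which whole reads were recovered within 0.01 for 100% of values. The lowest value of every library is 1 read, so peaks without reads cannot be told from peaks with 1. RNA-seq reads were trimmed with Trim Galore 0.40 and quantified with Bowtie2 and RSEM 1.2.12, and the authors deposited expected counts and FPKM per gene for 24531 entries and 92 spike-ins. The study's record of mitochondrial reads separates replicates 1 to 3 from replicates 4 and 5, with which all mixtures belong.

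From these values, limma 3.58.1 (trend) was fitted to log2(signal + 1) over all 65053 peaks, pure lines only. Bins were 5 Mb wide from the chromosome start, by peak centre, and a bin value is the median over its peaks. Runs are 3 or more neighbouring bins of 1 sign with medians beyond 0.25. Promoter peaks lie within 2 kb of a GENCODE start site on mm9. Expected counts were rounded to whole numbers and tested with edgeR 4.0.16 (TMM, quasi-likelihood) over the 12195 genes that reached 1 FPKM in every replicate of 1 or both lines, spike-ins left out, with Benjamini-Hochberg adjustment. Mixture correlations used 2-sided exact permutation tests over 9 libraries, where 5.51e-06 is the smallest p possible. Intervals and floors of single genes cover counting error only. Simulated data for the line contrasts held a log2 change of 3 in size in 200 well-covered peaks or genes and none elsewhere. There limma called 154 of 200 changed peaks and 0 unchanged ones, and edgeR 200 of 200 changed genes and 0 unchanged ones. Changes near the fold limit were not simulated. R 4.3.3 and Python 3.11.15 were used.

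Named peaks were the 5 called ones with the largest change per direction and a mean of at least 10 normalized reads in the higher line, plus start-site peaks of named genes. Named genes were the 5 called ones with the largest change per direction and at least 5 FPKM in all replicates of the higher line, called list members, and the 4 broadly expressed genes with the highest mean FPKM. Some genes that this rule names are counted in their lists and not reported here on their own, so fewer are named than it gives. Other named list members were chosen after their values were seen. The members and the gene lists were chosen with earlier results of these data known. Reference sequence and annotation were NCBIM37 (mm9), whose chromosome 1 length matches the files. The authors' columns of nearest genes were not used as results.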

Additional observations from a re-analysis of the deposited data

Results flagged for a closer look

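In groups of 5 libraries, 10 of 76 named values had 1 library standing apart from the other 4 by a gap of more than 0.71 of the group's range. Chance alone flags about 1 in 20 groups. In αTC1 replicate 5, the median chromosome 1 promoter ratio was -0.073, with the other 4 libraries at 0.0153 to 0.0268. The same library had 114 normalized reads at the peak from 37178786, with the others at 91.0 to 97.1, 105 at the Hspd1 start site (others 130 to 138) and 43.5 at the Eef1b2 start site (others 65.5 to 69.1).

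In βTC6, replicate 5 had 134 normalized reads at the A830018L16Rik start site (others 74.2 to 84.9), 9.58 at the Lrrfip1 start site (others up to 12.5) and a median ratio of -1.19 in the bin from 75 Mb (others -1.02 to -0.96). Replicate 1 had 5.82 normalized reads at the Gli2 intron peak (others 1.76 to 2.67). Replicate 2 had 2.26 at the Rgs16 start site (others 4.32 to 4.86) and a median ratio of 1.19 in the bin from 100 Mb (others 1.38 to 1.43). In each case the lines stayed apart.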

How the results depend on the processing

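The direction of the chromosome 1 medians held under all settings tried, in ATAC-seq and in RNA-seq. With a pseudocount of 5, 87 peaks (1.62%, against 2.56% of all peaks) were called toward βTC6 and 137 (2.56%, against 1.26%) toward αTC1. The median was -0.36, the lowest and highest bins were -0.82 and 0.98, and 12 bins lay beyond 0.5. A pseudocount of 0.5 gave a median of -0.66 and a highest bin of 2.17. Peaks with a mean of at least 10 reads gave 213 (10.4%, against 11.5% of all such peaks) and 256 (12.5%, against 6.82%) calls. Their median was -0.90 and bins ran from -1.32 to 3.24. Quantile normalization gave a median of -0.69 and a highest bin of 1.47. edgeR on the recovered reads gave 695 (12.98%, against 21.2% of all peaks) and 753 (14.1%, against 8.82%) calls. The median was -0.69 and bins ran from -1.33 to 2.48. Summed reads gave -0.67 and bins from -1.37 to 2.94. Promoters alone gave a median of -0.89 and a highest bin of -0.0063, the 1 summary that changed sign, and distal peaks alone -0.48. Bins of 2 Mb and 10 Mb gave 66 and 13 bins beyond 0.5, against 29. Over bins of at least 100 peaks, chosen after seeing the data, the highest was 0.49. By summed reads 39 bins followed composition, against 82.5% of genome bins. By the median level 24 did, against 74.5% of genome bins. The other settings of the level gave 16 to 31 bins, against 60% to 74.5% of genome bins. Leaving out 1 RNA-seq library each gave 68 to 77 and 34 to 38 called genes, and leaving out 1 ATAC-seq library changed no summary by over 1.5 times. Spike-in scaling gave an RNA median of -0.71, with 215 genes higher in αTC1 and 87 in βTC6 at FDR under 5%. Without the FPKM filter 161 (13.9%, against 12.8% of all genes) and 70 (6.05%, against 5.21%) genes were called, with a median of -0.47.

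Replicate numbers did not pair the libraries (correlations of deviations from -0.0019 to 0.069 in ATAC-seq and from -0.036 to 0.021 in RNA-seq). With the replicate number as a block, the calls were 405 and 454 peaks and 72 and 36 genes, and the RNA median was -0.67. Among single values, the Fzd7 start-site peak was 0.25 under quantile normalization. Atf3 was -0.17 with spike-ins, -0.31 with the block and, leaving out 1 library each, -1.19 (βTC6 replicate 3) to 0.62 (βTC6 replicate 2). The causes were not tested.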

Other observations

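The stretch from 85 to 90 Mb and its genes were picked after their values were seen. This bin had the widest spread among βTC6 libraries, with median peak ratios of -0.65, -0.53, -0.23, -0.64 and -1.02 (SD 0.28), and of its 23 genes tested 6 were called toward βTC6 and 0 toward αTC1, against 10.2% and 4.08% of all genes. Sp110, a nuclear body protein induced by interferon, had an RNA log2 fold change of 4.88 (SE 0.39, edgeR adjusted p = 4.19e-06). Its neighbours A530032D15Rik (3.82, SE 0.42) and C130026I21Rik (3.49, SE 0.36) were also called toward βTC6, and Sp140, another family member, had -0.0054 (SE 0.21, adjusted p = 0.983). Near-identical copies of this family occur in the bin, so reads may be split among them. Ugt1a6a (6.49, SE 0.42) and Ugt1a9 (11.50, SE 0.64), enzymes that attach glucuronic acid to drugs and other small molecules, were higher in βTC6 as well. Their transcripts share exons, so their separate counts are uncertain.

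One peak on the chromosome, at chr1:24618441-24622964, resembles the mitochondrial genome: 99.1% of its 25-base words also occur there. It had 23.0, 22.1, 31.7, 28.8 and 41.6 normalized reads in αTC1 and 113, 163, 95.3, 110 and 68.5 in βTC6 (1.85, SE 0.18), so the lines did not overlap. Reads of the nuclear segment and of mitochondrial DNA cannot be told apart in this peak.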
